A study of Capitella teleta with 10 samples.

Results

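Of 46409 consensus ATAC-seq peaks of the annelid Capitella teleta, 854 (1.84%) were selected because they were more accessible in the gastrula and in all 3 larval stages than in the 64-cell embryo and then stayed at a similar level. The rule worked on stage means, each the mean of 2 libraries. A peak was kept if its means in gastrula, st4tt, st5 and st8 were each at least 100 and at least 1.5 times its 64cell mean, and if the highest of these 4 later means was below 1.5 times the lowest. The members were chosen by their normalised accessibility values in all 10 libraries, so their levels across stages, and every count of members by stage, are given as a description with no test.

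The study profiled open chromatin through development, and C. teleta is an annelid with a non-feeding larva. The labels give 5 groups with 2 libraries each, namely 64cell embryos, gastrula, and larvae at st4tt, st5 and st8. Each library was made from about 50000 cells, which took about 500 animals at 64cell, 200 at gastrula, 120 at st4tt, 90 at st5 and 50 at st8, so a library is a pool of animals and of all their cell types. No animal carried a transgene or received a drug as far as the labels say, and embryos were taken from brood tubes after males and females had been kept apart and then mixed. The growth protocol in the labels describes rearing of Owenia fusiformis, another annelid, while the organism label and the titles name C. teleta. The study calls the libraries of a stage biological replicates. Whether they came from separate broods is not stated in the labels, so p-values here measure the spread between these libraries. The 64cell, gastrula and st4tt libraries were sequenced at Oxford and the st5 and st8 libraries at Novogene, with longer reads that the authors trimmed to the same length. The gain from 64cell to gastrula therefore lies within libraries of 1 sequencing centre. Stage and sequencing centre cannot be told apart between st4tt and st5. The methods of the study do not give the dates of library preparation or sequencing runs, so other batches cannot be judged.

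In ATAC-seq a transposase cuts and tags DNA where it is not packed by nucleosomes, so a peak marks a stretch of open chromatin. Such stretches are mostly promoters, where transcription starts, and enhancers, which bind transcription factors and act on promoters at a distance. Early animal embryos run largely on RNA laid down by the mother, and chromatin opens at many regions as the embryo's own genome takes over. A region that stays open from then on in a whole animal may be open in most cells or in different cells at different stages. In these bulk libraries, a larger share of cells with an open region and a more open region in each cell cannot be told apart.

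Reads within consensus peaks, recovered approximately from the normalised values, ranged from 13969214 to 16513519 in the 64cell libraries and from 22934759 to 56819811 in the 8 later libraries. Per library, the median reads of a consensus peak ran from 143 to 677. Members were better covered, with a median of 316.5 reads in 64cell replicate 1 and 394 in replicate 2, but the weakest member had only 9 and 12 reads there. The strongest consensus peak of a library, which was never a member, held 6.46% and 5.13% of all signal in the 64cell libraries and 0.495% to 3.21% in the later libraries. Members held 2.77% and 2.89% of the reads in consensus peaks at 64cell and 5.51% to 6.32% in the later libraries.

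By their signal, most members were not closed at the 64-cell stage. Their median 64cell mean was 748, against 335 for all consensus peaks, and 628 of 854 (73.5%) lay above that overall median. In 810 members (94.8%) the 64cell mean was itself at least 100, the floor that the rule set for later stages. Over all consensus peaks the lower quartile of the 64cell mean was 133, so most of them exceeded 100 as well. These values are per peak and not per kb of width, and members were wider. By the authors' peak calls, however, 281 of 854 members had no peak in either 64cell library. The same held for 20620 of all 46409 consensus peaks. The selected peaks are therefore described here as regions that gained accessibility by the gastrula, most of them from a level already above the floor, and not as regions newly opened.

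Between 64cell and gastrula the median member went from a normalised value of 748 to 1425. The medians of the later stage means were 1590 at st4tt, 1420.4 at st5 and 1448 at st8. By library, the median over members was 742 and 771 at 64cell, 1437 and 1406 at gastrula, 1591 and 1566 at st4tt, 1423 and 1424 at st5, and 1425 and 1473 at st8. Both 64cell medians lay below those of the 8 later libraries, as the rule requires. In 848 of 854 members (99.3%) both 64cell libraries were below all 8 later libraries, which held for 13.6% of all consensus peaks.

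**Figure D1:**
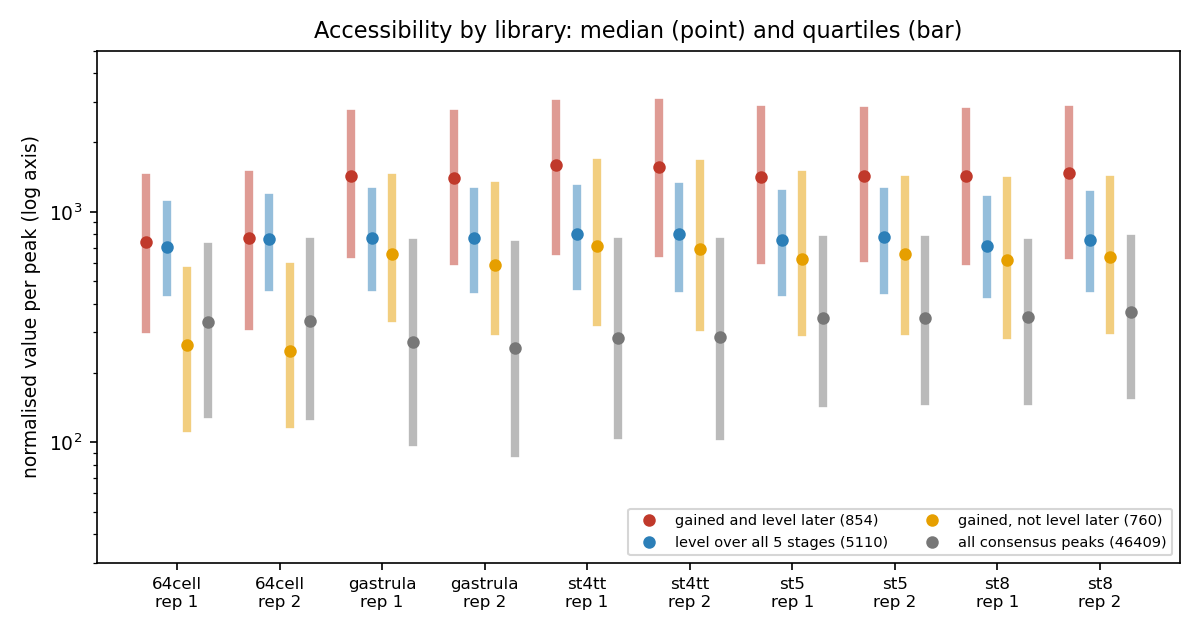
Normalised value per peak (log axis) in each of the 10 libraries, with the median as a point and the quartiles as a bar, for members (red), peaks level over all 5 stages (blue), peaks that gained but were not level later (orange) and all consensus peaks (grey). The median of members was 742 and 771 in the 64cell libraries and between 1406 and 1591 in the later ones, while the median of the level peaks was similar to that of members at 64cell and stayed there.

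In 6 members the libraries of 64cell and later stages overlapped, so that their place in the set rested on a mean of unlike libraries. CTEL_peak_19201 had values of 20.9 and 130.1 at 64cell, 178.5 and 165 at gastrula, 60.1 and 205 at st4tt, 169 and 158 at st5, and 127 and 105 at st8. Its 64cell replicate 2 exceeded 3 of the 8 later libraries. The other 5, CTEL_peak_8813, CTEL_peak_37286, CTEL_peak_12036, CTEL_peak_36420 and CTEL_peak_45994, had 64cell values between 41.8 and 260 and later values between 52.7 and 646. These 6 were singled out after their values were seen.

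The gain was mostly modest. The ratio of the lowest later stage mean to the 64cell mean had a median of 1.69 and quartiles of 1.57 and 1.88, with the bound of the rule at 1.5. A ratio under 1.6 was found in 274 members (32.1%), a ratio of at least 2 in 149 (17.4%), of at least 3 in 13 and of at least 4 in 5. The highest ratio was 5.44. The ratio had almost no relation to the later level over the 854 members, with a Spearman rho of −0.08, or to width, with −0.06. Members share libraries, and the 64cell mean is part of the ratio. The 13 members with a ratio of 3 or more were weak beside other members, with a median later mean of 394 and a median 64cell mean of 102.

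The 5 members with the largest ratio were weak at 64cell and, beside other members, at the later stages too. Their later means ran from 270 to 355, where the median was 1495 for members and 327 for all consensus peaks. CTEL_peak_26982, on scaffold 4008 at 101 to 1024, had values of 69.5 and 23.3 at 64cell, 209.8 and 316 at gastrula, 299 and 362 at st4tt, 329 and 319 at st5, and 246 and 259 at st8. CTEL_peak_39570, on scaffold 72 at 411280 to 412174, had 50.9 and 48.4 at 64cell, then 351 and 247, 265 and 187, 273 and 231, and 322 and 280.3 at the 4 later stages in order. In both peaks the 64cell libraries lay below all later libraries, which spanned 209.8 to 362 in the former and 187 to 351 in the latter.

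CTEL_peak_9933, on scaffold 17317 at 301 to 1385, rose from 62.5 and 71.7 at 64cell to 345 and 323 at gastrula, and its later values ran from 266 to 391. CTEL_peak_31544, on scaffold 5 at 133732 to 134589, had 62.5 and 75.6 at 64cell and 255 to 410.3 later, with its highest values at st8. CTEL_peak_16161, on scaffold 241 at 110483 to 112369, had 64cell values of 132 and 29.1, and its ratio of 4.03 came from that mean. The pair of 64cell libraries of CTEL_peak_16161 was less alike than those of the other 4. With any 1 library left out, its log2 ratio ranged from 1.30 to 3.48 and that of CTEL_peak_26982 from 1.86 to 3.44, both set by the 64cell libraries, while the other 3 stayed between 1.87 and 2.34.

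Of the 5 strongest members, all but CTEL_peak_5622 were at least 3347 bp wide. CTEL_peak_13580, on scaffold 210 at 244571 to 249975, was both the strongest and, at 5405 bp, the widest. Its values were 9770.1 and 9589 at 64cell, 18248 and 17825 at gastrula, 18453 and 18197 at st4tt, 19933 and 18363 at st5, and 18106 and 17294 at st8. The 64cell libraries stood well below the rest, and the highest later stage mean was 1.08 times the lowest. CTEL_peak_13221, on scaffold 208 at 17297 to 21520, had 6914 and 7559 at 64cell, 13354 and 13133 at gastrula, 16243 and 16625 at st4tt, 16466 and 15526 at st5, and 13408 and 13033 at st8. Its libraries at st4tt and st5 lay above those at gastrula and st8. Under a scaling that removes trends with peak strength (cyclic loess), the log2 ratio of the lowest later mean to the 64cell mean of these 2 peaks turned from 0.87 to −0.12 and from 0.87 to −0.0091.

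CTEL_peak_24130, on scaffold 354 at 6600 to 11580, had 5245 and 5425 at 64cell and 10382 and 10493 at gastrula, and it went on to 13781 and 14041 at st4tt and 16394 and 14662 at st5 before 12425 and 11555 at st8. It was close to the bound on level, with 1.49 between its highest and lowest later mean. CTEL_peak_5622, on scaffold 135 at 252027 to 253387, reached 13808 and 13873 at st4tt from 5356 and 4844 at 64cell, with 10750.0 and 9284 at gastrula, 11028 and 9737 at st5, and 11447 and 9604 at st8. At 8223 per kb of width it had the highest later mean per kb of all members, whose median was 1253. CTEL_peak_27890, on scaffold 42 at 189909 to 193255, was highest at st8, with 12721 and 12389 there, 4586 and 4767 at 64cell, and 8614 and 8528 at gastrula.

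**Figure D2:**
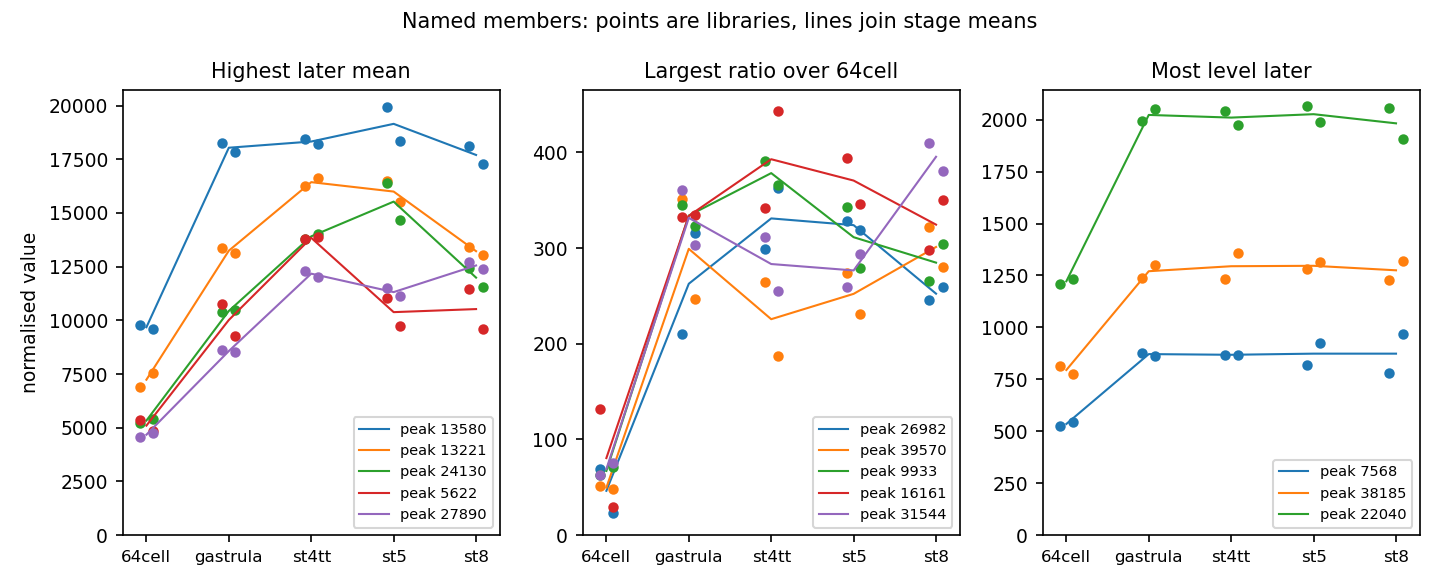
Normalised values of the 5 members with the highest later mean, the 5 with the largest ratio over 64cell and the 3 most level members, with libraries as points and lines through stage means (linear axes from 0, with a different range in each panel). The strongest members ran from 4586 to 9770.1 at 64cell, those with the largest ratio from 23.3 to 132, and the most level from 525 to 1233.

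The 3 most level members differed little in any larval stage. CTEL_peak_7568, on scaffold 150 at 403085 to 403975, had stage means of 535 at 64cell and 872, 868, 874 and 874 at the 4 later stages, a highest to lowest ratio of 1.01. Its libraries were less even than its means, with 781 and 966 at st8. CTEL_peak_38185, on scaffold 678 at 28773 to 29614, had 814 and 776 at 64cell and between 1229 and 1356 in the later libraries. CTEL_peak_22040, on scaffold 32 at 429481 to 431103, had 1211 and 1233 at 64cell and between 1909 and 2063 later. Over all members the highest to lowest ratio had a median of 1.30, the same as the 1.30 of the peaks that were level over all 5 stages.

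The order of the later stages was not the same for all members. The highest later mean was at st4tt in 372 members, at st8 in 212, at st5 in 149 and at gastrula in 121. The lowest was at gastrula in 336, at st8 in 239, at st5 in 190 and at st4tt in 89. Members highest at gastrula were the weakest of the 4 groups, with a median later mean of 755, against 1714 for those highest at st4tt, 1757 for st5 and 1336 for st8. Their median ratio over 64cell was close in all 4, from 1.67 to 1.71.

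Calls between consecutive stages came from a limma fit over all 46409 peaks, and opened and closed stand for a higher and a lower value at a Benjamini-Hochberg adjusted p under 0.05. From 64cell to gastrula, 848 members were called opened and 0 closed, where 27.1% of all peaks were called opened and 36.3% closed. The lowest log2 change of a member was 0.57, so 0 were lower at an unadjusted p under 0.05 too, and edgeR and DESeq2 on recovered reads opened 846 and 849 and closed 0, where edgeR opened 25.9% and closed 35.7% of all peaks and DESeq2 24.8% and 34.2%. The rule used this contrast, so nothing is read from the count. The median log2 change of members on the log2(value + 1) scale was 0.89, and that of all peaks was −0.08. It lay at 0.82 to 1.01 for members with TMM or quantile scaling and at 0.70 with cyclic loess, under which 792 were called opened and 4 closed, beside 27.6% and 28.3% of all peaks. With a required log2 change of at least 1, 306 members were called opened and 0 closed, beside 9.09% and 15.7% of all peaks.

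The 6 members not called were CTEL_peak_478, CTEL_peak_37286, CTEL_peak_12036, CTEL_peak_19201, CTEL_peak_45994 and CTEL_peak_12888. CTEL_peak_478, on scaffold 10 at 767670 to 768712, had 1131 and 586 at 64cell and 1512 and 1305 at gastrula, so that its 64cell libraries differed by more than its gastrula libraries. CTEL_peak_12888 had 252 and 317 at 64cell but 943 and 524 at gastrula and 968 and 377 at st4tt. In each of these 6 the replicates of 1 stage or more lay far apart.

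Changes of members after the gastrula were smaller and went both ways. From gastrula to st4tt, 265 members were called opened and 27 closed, beside 21.7% and 14.7% of all peaks, with a median log2 change of 0.14. With TMM scaling these counts were 186 and 51, beside 17.9% and 18.1% of all peaks. With quantile scaling they were 202 and 33, beside 16.3% and 14.8%, and with cyclic loess 187 and 63, beside 17% and 18.1%. Members called either way numbered 292 (34.2%), against 36.5% of all peaks. Without gastrula replicate 2 they numbered 192 (22.5%), against 26.7%, and without st4tt replicate 2 they numbered 164 (19.2%), against 24.7%.

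From st4tt to st5, the step at which the sequencing centre also changed, 62 members were called opened and 233 closed. Of all peaks, 39.8% were called opened and 20% closed. The median log2 change was −0.10 for members and 0.23 for all peaks. TMM scaling moved the median of all peaks by 0.19 to 0.04, that of members to −0.29, and the members' counts to 18 and 507, beside 30.5% and 30% of all peaks. With quantile scaling the counts were 73 and 228, beside 26% and 25.8%, and with cyclic loess 95 and 249, beside 24.9% and 27%. Without st5 replicate 1, 164 members (19.2%) were called either way, against 43.6% of all peaks. How much of this step belongs to the stage and how much to the sequencing centre cannot be told apart.

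From st5 to st8, both sequenced at Novogene, 100 members were called opened and 118 closed, beside 15.3% and 17.4% of all peaks. The median log2 change of members was 0.01, and the balance of the members' calls depended on the scaling. Under TMM the counts were 78 and 146, beside 14.3% and 19.2% of all peaks. Under quantile scaling they were 164 and 75, beside 17.6% and 19.1%, and under cyclic loess 236 and 39, beside 16.1% and 16.7%. Leaving out any 1 of the 4 libraries of st5 and st8 left 107 to 128 members called either way (12.5% to 15.0%), against 20.5% to 21.2% of all peaks. A fit to these 4 libraries alone called 338 (39.6%), against 47.9% of all peaks. In all 3 later steps together, 340 members (39.8%) were called in neither direction, as were 19.4% of all peaks. The bound of 1.5 on the later means largely fixes the size of these changes, and the strongest, a log2 change of −0.62, was found from gastrula to st4tt.

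Members were strong peaks. The median of their later means was 1495, against 327 for all consensus peaks, 770.0 for the 5110 peaks that met the same floor and were level over all 5 stages, and 660 for the 760 peaks that gained as much but were not level later. In the top decile of all peaks by later mean lay 437 members (51.2%), against 855 of the level peaks (16.7%). At 64cell, by contrast, members and level peaks had medians of 748 and 736. The rule set a gain over 64cell, so a later level of members above that of level peaks largely restates the rule.

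The change from 64cell to gastrula also varied with strength over all peaks. When all consensus peaks were divided into 10 deciles by their mean value over the 10 libraries, the median log2 change was 0.52 in the weakest decile, −0.62 in the 4th and 0.40 in the strongest. The strongest decile held 410 of 854 members, which made up 8.83% of its 4641 peaks, and 67.2% of its peaks were called opened. The bound on the gain lay above the median change of every decile, so a member exceeded the median of its own decile by the rule itself. The excess had a median of 0.69 on the log2 scale over all members, of which 500 reached 0.585, the log2 of 1.5. Among the 410 members of the strongest decile it had a median of 0.43, and 111 reached 0.585. The share of signal in the strongest single peak and the depth of the 64cell libraries, given above, moved with the same step, and their part in the gain was not tested.

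**Figure D3:**
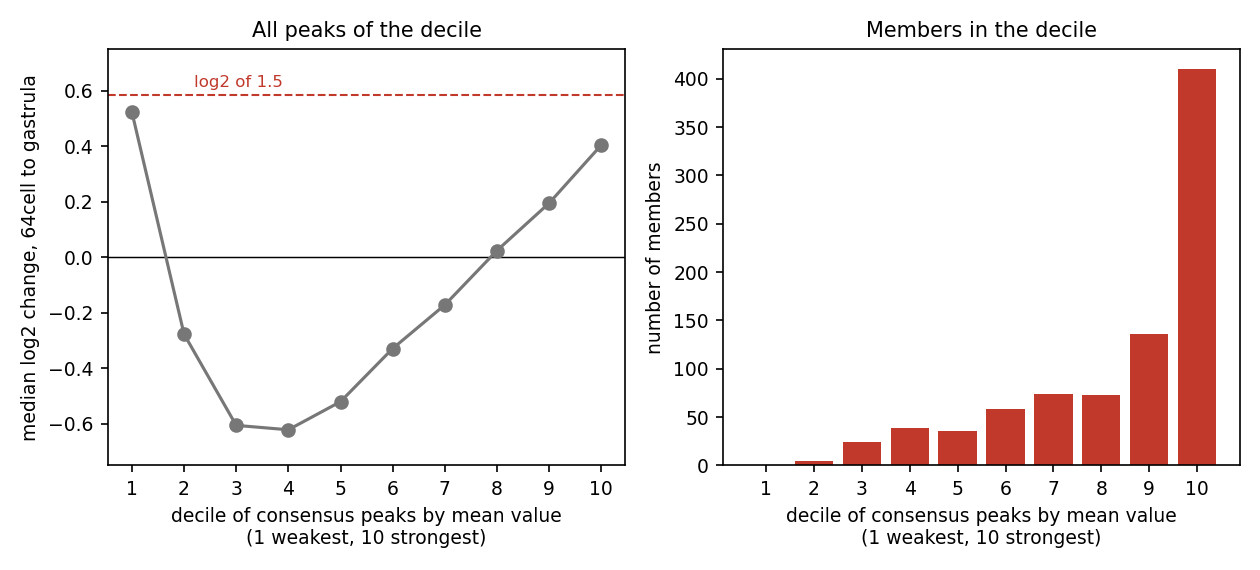
Left, median log2 change from 64cell to gastrula over all consensus peaks in each decile by mean value, with the log2 of 1.5 as a dashed line. Right, number of members in each decile. The median change lay at −0.62 in the 4th decile and at 0.40 in the strongest, which held 410 members.

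Applied to values rescaled with TMM factors the rule kept 619 peaks, of which 430 were among the 854. With quantile normalisation it kept 611, of which 431 were shared, and with cyclic loess 434, of which 256 were shared. The lowest later mean stayed above the 64cell mean in all 854 members under TMM and quantile scaling and in 830 under cyclic loess, but it stayed at 1.5 times or more in 581, 515 and 367. The members were chosen for a gain, so its direction under these scalings is no independent support, and membership at the bound of 1.5 turned on the scaling.

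The rule was also applied to each replicate number by itself. Replicate 1 alone selected 953 peaks, of which 439 (46.1%) also met the whole rule in replicate 2, where 1.72% of all consensus peaks did. Replicate 2 alone selected 798, of which the same 439 (55.0%) met it in replicate 1, against 2.05% of all. The condition most often missed in the other replicate was the gain of 1.5 times, which 54.0% and 69.8% met, where 8.73% and 10.0% of all peaks did. The level condition was met by 79.5% and 75.3%, where 20.3% and 19.0% of all peaks met it. In 917 of the 953 (96.2%) and 775 of the 798 (97.1%) the 64cell library was the lowest of the other replicate, as in 20.8% and 23.5% of all peaks. The floor was met in the other replicate by 97.9% and 99.1% of the selected peaks. By stage means, only 69.4% of all consensus peaks met it, so the 2 backgrounds are unlike. Both replicates entered the rule for the members, so these shares are a description and no independent support.

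Peaks on either side of each bound were close in the measure that the bound used, while their levels could differ widely. Just inside the floor of 100, CTEL_peak_3879 had its lowest later mean at 103.5, in st4tt, and just outside, CTEL_peak_18946 had 99.4, in gastrula, from libraries of 133 and 66.2. At the gain of 1.5, CTEL_peak_26586 was just inside with 266.8 at 64cell and 400.2 at its lowest later stage, and CTEL_peak_15455 was just outside with 1313 and 1969.7. At the bound on level, CTEL_peak_12888 was just inside with later means from 567 to 849.9, and CTEL_peak_25646 was just outside with later means from 1726 to 2591. The floor decided little, since 42 peaks met both other conditions below it.

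Peak calls give a second view of the same libraries. The authors called peaks in each library separately, and a member counted as called where it overlapped a called peak by at least 1 bp. Members had a call in 62.5% and 64.4% of cases in the 64cell libraries and in 93.2% to 96.1% in the later libraries. For all consensus peaks the shares were 46.6% and 51.7% at 64cell and 58.9% to 83.5% later. Peaks level over all 5 stages, whose median 64cell value was close to that of members, had a call in 75.9% and 81.7% at 64cell.

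**Figure D4:**
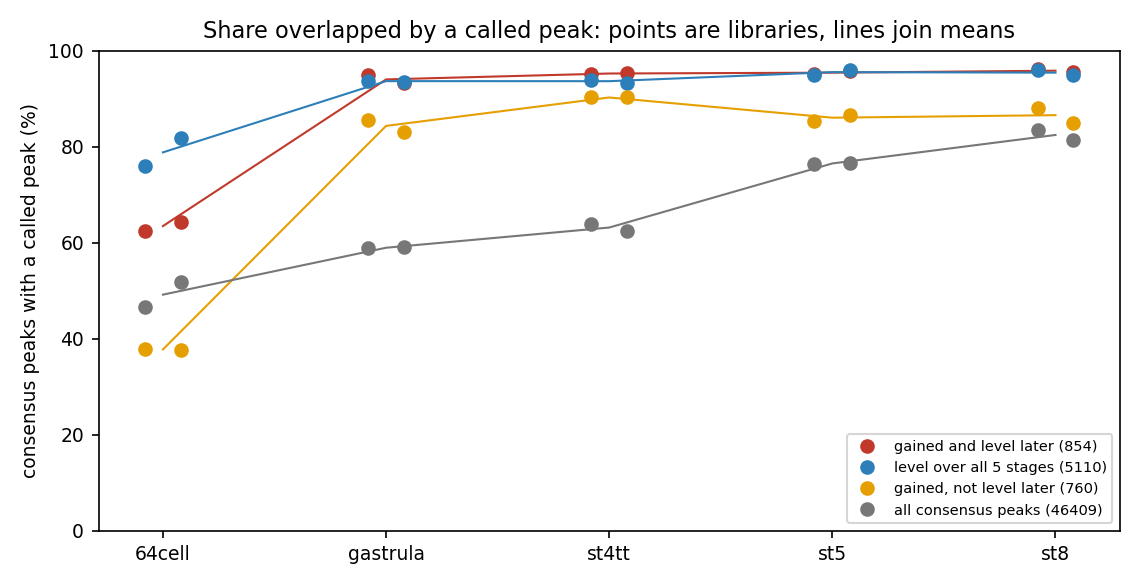
Percent of consensus peaks overlapped by a called peak of each library, with libraries as points and lines through the mean of the 2 libraries, for members (red), level peaks (blue), peaks that gained but were not level later (orange) and all consensus peaks (grey). Members rose from 62.5% and 64.4% at 64cell to between 93.2% and 96.1%.

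Both 64cell libraries had a call for 511 members (59.8%), against 42.8% of all peaks, and all 8 later libraries for 745 (87.2%), against 40.9%. A call in all 10 libraries was found for 510 members (59.7%), where 31.5% of all peaks had one. A further 173 members (20.3%) were called in all 8 later libraries and in neither 64cell library, against 4.61% of all peaks and 5.03% of level peaks. Peaks that gained but were not level later had this pattern in 24.5%, so it was not particular to members. No member lacked a call in every library. The 510 had a median 64cell mean of 1182 and a median width of 1308 bp, and the 173 had 362 and 1058 bp. A ratio of at least 2 was found in 14.7% of the 510 and in 26.0% of the 173. The absence of a call at 64cell did not mean absence of signal, since the 281 members with no 64cell call had 64cell means from 42.4 to 1898. The 64cell libraries were also the shallowest, and the part of depth in the missing calls was not tested.

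Called peaks covered less of the width of members at 64cell. The median percent of a member's width covered by called peaks was 26.6% and 34.0% in the 64cell libraries and 74.7% to 88.5% in the later ones. For level peaks it was 36.9% and 50.9% at 64cell. Peaks with no call in a library entered these medians as uncovered. The lower 64cell medians thus partly restate the missing calls and do not show that the called parts were narrower. Where called, members had a median fold enrichment over background of 3.52 and 3.39 at 64cell and 4.34 to 4.86 later. Level peaks had 3.19 and 3.25 at 64cell, 4.40 to 4.84 at gastrula and st4tt, and 3.52 to 3.95 at st5 and st8. Members also had lower enrichment at st5, with 4.34 and 4.39, than at st4tt, with 4.86 and 4.76, and their st5 values were close to the 4.36 and 4.35 at gastrula. All consensus peaks fell as well, from 3.45 and 3.42 at st4tt to 2.53 and 2.49 at st5. The sequencing centre changed at this step.

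Within members called in all 10 libraries, the median shift of the point of strongest signal was small. The median distance between summits was 48 bp from 64cell to gastrula, against 42 bp between the 64cell replicates themselves and 23 bp between the gastrula replicates. From st4tt to st5 it was 50.0 bp. Level peaks had 44 bp from 64cell to gastrula, and all consensus peaks called in all 10 libraries had 48 bp. At this step 66.8% of member summits lay within 100 bp, against 65.5% for all consensus peaks. Between replicates, 72.0% of member summits did at 64cell and 83.3% at gastrula. The median shift of members from 64cell to gastrula was thus close to that between the 64cell libraries, and was not particular to members.

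Members were wider than most peaks. Their median width was 1153 bp with quartiles of 837 and 1626 bp, against 1062 bp for level peaks, 914 bp for peaks that gained but were not level later, and 810.0 bp for all consensus peaks. The narrowest member, CTEL_peak_13044 on scaffold 205 at 153074 to 153180, was 107 bp wide, with 53.4 and 71.9 at 64cell and between 108 and 176 later. Width went with strength among members (Spearman rho of 0.71 over 854 peaks) as it did among all peaks (0.70 over 46409). Per kb of width, the median later mean was 1253 for members, 916 for peaks that gained but were not level later, 716 for level peaks and 442 for all peaks. Members were highest per kb as well as per peak, while the other 2 sets changed places. The later means entered the rule, so this order is a description.

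Members were spread over the genome assembly. They lay on 492 of 5551 scaffolds that held a consensus peak, with exactly 1 member on 311 of these and 5 or more on 23. Scaffold 4 held the most, with 14 of its 227 consensus peaks, or 6.17%, followed by scaffold 17 with 9 of 171. The only consensus peak of its scaffold was found in 35 of 854 members and in 3369 of all 46409 peaks. The median gap to the nearest consensus peak was 1511 bp for members and 1540.0 bp for all peaks.

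The 14 members on scaffold 4 lay between 3474 and 1090689. CTEL_peak_26613, at 3474 to 4098, had 458 and 614 at 64cell, 963 and 886 at gastrula, 947 and 928 at st4tt, 927 and 875 at st5, and 1113 and 1274 at st8. CTEL_peak_26615, at 16162 to 19390, was stronger in every library, with 1908 and 1604 at 64cell and between 2841 and 3644 later, and was likewise highest at st8. CTEL_peak_26705, at 501483 to 502455, had 1215 and 1327 at 64cell and was highest at st4tt, with 2927 and 3186. CTEL_peak_26669 at 344083 to 345175 and CTEL_peak_26673 at 355042 to 356317 had larger ratios, of 2.60 and 2.36. The former had 439 and 549.8 at 64cell and between 1195 and 1728 later, and the latter had 761 and 774 at 64cell and between 1746 and 2479 later.

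Some members lay side by side. In 55 cases (6.93% of the 794 members with a next consensus peak on the scaffold) the next peak was also a member, where members made up 1.84% of all peaks, and 105 members (12.3%) had another member as a neighbour. Members made up 8.83% of the strongest decile, and the part of strength in these shares was not tested. The nearest peak was a member for 6.96% of members, for 5.60% of peaks that gained but were not level later and for 2.15% of level peaks. The longest runs held 3 members, and there were 5 of them, on scaffolds 5, 23, 44, 276 and 394. On scaffold 394, CTEL_peak_26348, CTEL_peak_26349 and CTEL_peak_26350 between 41504 and 53953 had 64cell means of 711, 571 and 3470.5 and gastrula means of 1814, 1446 and 7074. The closest pair of members, CTEL_peak_22237 and CTEL_peak_22238 on scaffold 322 between 159539 and 160362, was 85 bp apart. The former had 577 and 573 at 64cell and between 839 and 1071 later, and the latter 188 and 209.4 at 64cell and between 328 and 516 later, with both highest at st4tt. Peaks this close can share fragments, so they are not independent.

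Peaks next to members also gained from 64cell to gastrula more often than peaks in general. Of the 762 nearest neighbours that were no members, 48.2% were called opened and 21.0% closed, while 25.8% and 37.0% of all 45555 non-members were. The nearest non-members of level peaks were opened in 28.9% and closed in 34.0%, and those of peaks that gained but were not level later were opened in 48.8%. Thus neighbours of both sets that gained had similar shares. By distance to the nearest member, 55.1% of 321 non-members under 1 kb away were opened, 44.9% of 1219 between 1 and 5 kb, 30.2% of 3608 between 5 and 20 kb and 25.5% of 10555 between 20 and 100 kb.

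The strength of these neighbours moved with the distance as well. The median later mean of non-members was 722 under 1 kb from a member, 640 between 1 and 5 kb, 472 between 5 and 20 kb and 390.0 between 20 and 100 kb. Over all peaks, the share opened was 20.7% in the weakest decile, 14.4% in the 4th and 67.2% in the strongest. The part of strength in the shares of neighbours was not tested. Around level peaks the share opened was 32.3% under 1 kb and 21.3% between 20 and 100 kb, with median later means of 418 and 273.

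**Figure D5:**
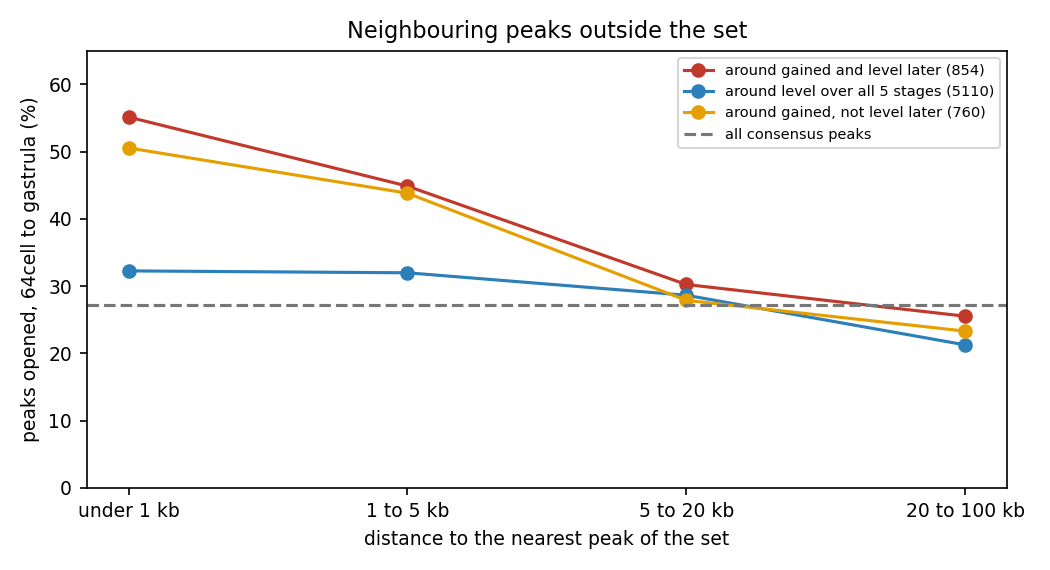
Percent of consensus peaks called opened from 64cell to gastrula by their distance to the nearest member (red), level peak (blue) or peak that gained but was not level later (orange), leaving out members and the peaks of the set itself, with the share of all consensus peaks as a dashed line. The share around members went from 55.1% under 1 kb to 25.5% between 20 and 100 kb, and the dashed line counts members as well.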

How the data were processed

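The members, the peaks used for comparison and the named peaks were chosen with earlier results of these data known. Per the methods of the study, the authors used cutadapt for trimming, NextGenMap for mapping, samtools to take out duplicates, deepTools for the transposase shift and, per the labels, MACS2 2.2.7.1 for peaks of each library. Reproducible peaks outside repeats were merged with DiffBind and normalised using DESeq2. The genome build of the ATAC-seq mapping is not given in the sources used here, although the study re-annotated genes on the Ensembl Metazoa assembly, and the deposited coordinates are printed with starts counted from 1. The deposited table holds 1 normalised signal value per consensus peak and library, not counts. The deposited peak lists hold, per line, the summit, a score, the ratio of signal to background (fold enrichment) and the −log10 of both the p-value and the q-value. Of these, the fold enrichment, the −log10 q-value (as a stricter filter) and the summit were used as the authors gave them.

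All peaks were tested between consecutive stages on log2(value + 1), a pseudocount of 1, with limma 3.58.1 (R 4.3.3, trend and robust moderation, 10 libraries in 1 fit, no covariates), two-sided, with Benjamini-Hochberg adjustment over 46409 peaks. Fold changes on this scale understate those of weak peaks. The test and the recovery of reads were tested on simulated data. The value of 1 read changed smoothly with peak strength in each library. Dividing by it gave whole reads, within a tolerance of 0.1, for 99.996% of 56159 values of 1 to 50 reads and for 89.8% of all 450405 values above 0. edgeR 4.0.16, which called 12035 peaks opened from 64cell to gastrula, and DESeq2 1.42.0 were run on these reads as alternatives. Peak lists were intersected with the consensus by coordinates in Python 3.11.15.

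Peaks named were the 5 strongest members by later mean, the 5 with the largest ratio over 64cell, the 3 most level, those just inside and outside each bound, the widest and narrowest, the first 5 on the scaffold with the most members, and the closest pair. Others were named after their values were seen. The sets for comparison were 5110 peaks above the floor with all 5 stage means within 1.5 times, and 760 that met the floor and the gain but not the level condition. Genes near the peaks and their sequences were not analysed here.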

Additional observations from a re-analysis of the deposited data

How the results depend on the processing

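The number of members depended on the bounds. A lower bound on the gain gave 2082 members and a gain of 2 gave 149, a tighter level bound gave 315 and a level bound of 2 gave 1325, and cyclic loess, added after the trend with strength had been seen, gave 434. Floors of 50 and 200 gave 877 and 811, and leaving out 1 library gave 799 to 1016. The members opened from 64cell to gastrula numbered 833 to 851 without 1 library, and members changed in the next 3 steps numbered 164 to 366, 164 to 368 and 107 to 282. Over all peaks, the changed peaks of the 4 steps numbered 26672 to 29397, 11482 to 19223, 20250.0 to 29429 and 9507 to 17119. With a log2 change of at least 1, 306, 0, 0 and 0 members and 11525, 4134, 9114 and 2795 of all peaks changed. TMM gave 525 members changed from st4tt to st5 (61.5%, against 60.6% of all peaks). The 4 libraries of st5 and st8 alone gave 338 (39.6%, against 47.9%). Calls with a −log10 q of at least 5 covered 57.8% of members at 64cell, 90.9% at gastrula, 93.0% at st4tt, 92.0% at st5 and 93.1% at st8. For all consensus peaks the shares by library rose too. They were 36.9% and 42.5% at 64cell, 52.7% and 52.6% at gastrula, and 56.7% and 55.5% at st4tt. At st5 they were 64.0% and 64.5%, and at st8 74.1% and 68.6%. Among 312 alternative log2 ratios of 24 named members, 310 stayed above 0 and 35 fell below 0.585. With cyclic loess the log2 ratio of CTEL_peak_13580 was −0.12 and that of CTEL_peak_13221 −0.0091. The cause was not tested.

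With the replicate number as a block, 849 members were opened from 64cell to gastrula, beside 12633 of all 46409 peaks. In the next 3 steps 295, 296 and 216 members changed (34.5%, 34.7% and 25.3%), against 36.1%, 59.7% and 32.4% of all peaks. Same-numbered libraries did not deviate together over the peaks, with correlations between −0.05 and 0.03. Libraries from the same broods need not deviate together, so these values cannot decide whether the numbers pair libraries. Motifs and nearby genes were not run. At 9 and 12 reads, the weakest members at 64cell limit what single ratios show.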
